A study of Mus musculus with 3 samples.

Results

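Imprinted genes are transcribed mainly from the copy inherited from the father or mainly from the copy inherited from the mother, a choice laid down by DNA methylation in the germ line. Many act on growth before birth: paternally expressed members such as *Igf2*, *Peg3* and *Plagl1* mostly favour growth, maternally expressed members such as *H19* and *Cdkn1c* mostly restrain it, and much of the group is known to be turned down together after birth in several organs. The prostate forms from the urogenital sinus, where mesenchyme instructs buds of epithelium, so the cell types that carry these transcripts are of interest in that organ. Named imprinted genes, *Igf2*, *H19*, *Cdkn1c*, *Peg3*, *Mest*, *Peg10*, *Sgce*, *Plagl1*, *Nnat* and *Ndn*, were taken by name from the rows of the expression table, where all 10 were found among 9781 gene rows kept. The allele of origin was not measured.

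Droplet single cell RNA-seq (10x, 3′ ends) had been done on male mouse urogenital sinus at E18.5 and on prostate at P14 and P35, with 1 library for each. Tissue was labelled normal, no treatment was given, and the study's mice were of mixed C57BL/6 and 129S1/SvImJ background with an *Osr1*-Cre reporter used for lineage tracing, although the genotype of the animals behind these libraries and the number pooled were not in the labels. Such a reporter marks cells that have expressed *Osr1* and their descendants. Cell names end in 1, 2 or 3 with no key to the samples in the table or its labels, and they are called barcode sets 1, 2 and 3 here, with no age attached and no comparison of ages.

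Set 1 held 766 cells with a median of 19357 UMIs (unique molecular identifiers, each a counted RNA molecule), set 2 held 5350 cells with 1738, and set 3 held 8360 kept cells of 8457 with 1801. Sets 2 and 3 had 13 barcodes in common, sets 1 and 2 had 1, and sets 1 and 3 had 0. Levels below are CPM, the number of UMIs counted for a gene in every 1000000 UMIs of a class, its cells summed. Brackets hold exact 95% Poisson intervals for levels and exact binomial intervals for ratios and shares, which cover counting error only. With 1 library behind each set there was no replicate and no test, and fewer expressing cells cannot be told apart from less RNA in each cell where only a class sum is given. Because 3′ counts depend on each transcript's end, a gene was compared with itself across classes, and levels of different genes were not ranked.

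Cells fell into 14 clusters, of which 11 were named from markers. Fibroblast-like cells numbered 361, 1685 and 2634 in sets 1, 2 and 3, epithelium-like cells 118, 1395 and 2672, and smooth muscle-like cells 85, 1591 and 1941. Endothelium-like cells numbered 37, 95 and 197, and leukocyte-like cells 38, 25 and 177. The smallest classes were glia-like (21, 187 and 235 cells), pericyte-like (14, 28 and 127) and neuron-like (30, 15 and 19). Summed over the class, 11 fibroblast markers had 15829.9, 16095 and 17768 CPM in the fibroblast-like class of sets 1, 2 and 3, against 197, 1515 and 921 CPM for epithelium-like cells. Smooth muscle markers were weaker in smooth muscle-like cells of set 1, at 4029 CPM, than in those of sets 2 and 3, at 24804 and 23638. Some small classes also carried markers of other cells. Glia-like cells had 2582, 6859 and 5814 CPM of fibroblast markers in sets 1, 2 and 3 beside 6605, 4538 and 5175 of glia markers, and pericyte-like cells of set 1 had 10408 of fibroblast and 5212 of smooth muscle markers beside 3291 of their own. In set 2 leukocyte-like cells had 5977 of smooth muscle and 3696 of epithelial markers beside 3818 of leukocyte markers, whereas in set 1 the values were 22.9, 83.4 and 15745. Endothelium-like cells had 72.3, 3751 and 990.2 of smooth muscle and 454, 1851 and 1157 of fibroblast markers in the 3 sets, beside 4989.9, 4566 and 4264 of their own. The part of these markers in the levels of the imprinted genes in those classes was not tested. Clusters within a class were not shared evenly: cluster 1 held most fibroblast-like cells of sets 1 and 3, cluster 2 most of set 2, and for epithelium-like cells the fullest cluster was 4 in set 1 (71 of 118 cells), 5 in set 2 (503 of 1395) and 3 in set 3 (1223 of 2672).

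The positions of the genes on mm10 place most of them in known imprinted domains. *H19* (chr7:142575530-142578146) lies 72.6 kb from *Igf2* (chr7:142650768-142666816), and *Cdkn1c* (chr7:143458339-143461059) lies 792 kb from *Igf2* in the neighbouring domain. *Peg10* (chr6:4747306-4760517) and *Sgce* (chr6:4674350-4747204) are separated by 101 bases and are transcribed away from each other. *Peg3* (chr7:6703892-6730462), *Ndn* (chr7:62348277-62349928), *Mest* (chr6:30733506-30748466), *Plagl1* (chr10:13090832-13131694) and *Nnat* (chr2:157560078-157562525) belong to other domains.

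Promoter windows are shown for the growth factor and for 2 genes described below as high in mesenchymal classes, since these members moved together in part. The RefSeq promoter table used (GRCm38.p6) was matched for 6 of the 10 genes, with 11 windows in all. The 250 bases before a start site are printed 5′ to 3′ on the gene's strand, and capitals mark the motifs searched on both strands, which were the TATA box (TATAAA), the CCAAT box (spelt as named), the GC box (GGGCGG) and the core bound when methylated by the imprinting factor ZFP57 (TGCCGC). A motif on the other strand reads as its reverse complement. The motifs did not overlap each other in these windows.
Igf2, most downstream start, chr7:142657497-142657746: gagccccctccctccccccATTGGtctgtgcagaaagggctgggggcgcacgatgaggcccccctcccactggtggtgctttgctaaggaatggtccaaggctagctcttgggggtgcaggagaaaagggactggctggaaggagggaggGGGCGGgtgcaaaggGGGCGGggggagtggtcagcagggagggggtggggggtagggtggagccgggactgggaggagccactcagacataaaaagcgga
Mest, start of the second transcript listed, chr6:30737800-30738049: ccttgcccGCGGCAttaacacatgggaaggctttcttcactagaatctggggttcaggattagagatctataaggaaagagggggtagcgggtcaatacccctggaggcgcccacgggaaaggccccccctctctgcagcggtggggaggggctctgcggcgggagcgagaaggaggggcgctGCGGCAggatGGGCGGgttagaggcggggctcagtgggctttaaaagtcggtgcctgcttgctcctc
Plagl1, chr10:13090582-13090831: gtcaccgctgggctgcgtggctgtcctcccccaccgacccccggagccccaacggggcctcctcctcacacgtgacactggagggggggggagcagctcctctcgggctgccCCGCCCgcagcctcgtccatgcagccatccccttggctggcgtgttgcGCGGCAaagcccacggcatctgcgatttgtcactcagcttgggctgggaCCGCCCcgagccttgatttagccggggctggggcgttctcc
The *Igf2* window held 1 CCAAT and 2 GGGCGG on either strand with 6 CpG, the *Mest* window held 1 GGGCGG and 2 TGCCGC with 14 CpG, and the *Plagl1* window held 2 GGGCGG and 1 TGCCGC with 19 CpG. Among all 32851 windows of this length, TATAAA was found in 12.4%, CCAAT in 33.8%, GGGCGG in 32.7% and TGCCGC in 8.68%, and the median number of CpG was 6. Sequence tags at 3′ ends do not show which start was used.

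*H19*, *Mest* and *Igf2* also host microRNAs, which act by pairing of their seed (bases 2 to 8, in capitals) with target RNAs. Poly(A) libraries do not count mature microRNAs, so the sequences show what the hosts encode and not a measurement.
miR-675-5p, in H19: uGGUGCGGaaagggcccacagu
miR-675-3p, in H19: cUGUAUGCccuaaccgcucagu
miR-335-5p, in Mest: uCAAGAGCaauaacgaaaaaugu
miR-335-3p, in Mest: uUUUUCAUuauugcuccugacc
miR-483-5p, in Igf2: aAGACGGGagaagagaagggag
miR-483-3p, in Igf2: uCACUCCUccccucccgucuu
No seed was shared among the 6.

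*Igf2* encodes a growth factor of the insulin family that signals through the IGF1 receptor. In set 1 it stood highest in endothelium-like cells, at 815 CPM (761 to 871), followed by pericyte-like cells at 332 (275 to 398) and fibroblast-like cells at 310.3 (297 to 324), whose intervals overlapped. Smooth muscle-like cells had 140.1 CPM (123 to 159), glia-like cells 67.6 (48.1 to 92.5), neuron-like cells 47.7 (35.6 to 62.5) and epithelium-like cells 44.0 (38.7 to 49.9). Leukocyte-like cells held 2 UMIs. Of the UMIs in pericyte-like cells, 37.0% came from 1 cell, so that their place in this order rests on few cells, and this class also held fibroblast markers.

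In the other sets *Igf2* was far lower and kept to the same kinds of cell. Fibroblast-like cells had 22.7 CPM (17.3 to 29.2) in set 2 and 10.8 (7.76 to 14.7) in set 3, and endothelium-like cells had 89.0 (63.0 to 122) and 6.12 (1.99 to 14.3). Epithelium-like cells held 3 UMIs in set 2 and 1 UMI in set 3, although this class had the most UMIs in both sets. The level in fibroblast-like cells of set 1 was thus 13.7-fold that of set 2 (log2 ratio 3.77, 3.40 to 4.17) and 28.7-fold that of set 3 (4.84, 4.40 to 5.33). With only cells of at least 1000 genes kept, the log2 ratios were 6.08 and 6.93. In endothelium-like cells the ratios were 9.15 and 133, the latter on 5 UMIs in set 3. Fibroblast-like over epithelium-like, the log2 ratio was 2.82 (2.62 to 3.01), 5.92 (4.3 to 8.23) and 7.41 (4.85 to 12.75) in sets 1, 2 and 3.

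Shares of cells were compared after thinning to 900 UMIs a cell, which left out shallower cells and kept 357 of 361 fibroblast-like cells in set 1, 1485 of 1685 in set 2 and 2256 of 2634 in set 3. A UMI of *Igf2* was then found in 19% of those of set 1 (15.1 to 23.5), 2.22% of those of set 2 and 1.02% of those of set 3. Unthinned, the shares were 55.7%, 3.15% and 1.52%. Among leukocyte-like cells, taken as a class that should lack the transcript although in set 2 it held markers of other cells, the thinned share was 0 in each set, on 38, 23 and 168 cells, with median depths of 10313, 2027 and 2003 UMIs against 15643, 1258 and 1329 in fibroblast-like cells. In endothelium-like cells of set 1 the thinned share was 47.2% (30.4 to 64.5).

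*H19*, a maternally expressed long non-coding RNA that shares enhancers with *Igf2*, was found in the same classes but reached further into epithelium. Endothelium-like cells of set 1 had 1014 CPM (954 to 1076) and fibroblast-like cells 612 (594 to 631). Pericyte-like, smooth muscle-like, glia-like and epithelium-like cells lay between 271 and 228 CPM with overlapping neighbours. In fibroblast-like cells the level was 57.9 CPM (49.1 to 67.8) in set 2 and 4.48 (2.61 to 7.18) in set 3, so that set 1 was 10.6-fold and 137-fold higher. These log2 ratios, 3.40 and 7.09, were 3.21 and 5.93 with at least 1000 genes per cell. In cluster 1 alone they were 4.84 and 7.75, the latter against 0 UMIs in set 3.

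In the other named classes *H19* was at or near 0 UMIs in set 3. Smooth muscle-like, endothelium-like, glia-like, pericyte-like and neuron-like cells held 0 UMIs there. The 3 UMIs that a count of 0 allows put smooth muscle-like cells of set 1 at least 309-fold above those of set 3, and endothelium-like cells at least 276-fold. Epithelium-like cells had 228 CPM (215 to 241), 10.3 (8.17 to 12.8) and, from 4 UMIs, 0.255 (0.0694 to 0.652) in sets 1 to 3. In set 1 leukocyte-like cells 28 UMIs were counted, 53.6% of them in 1 cell. The unnamed cluster 10, led by mitotic genes, had 348 CPM (296 to 406) of *H19* in set 1 and 34.9 (17.4 to 62.4) in set 2. In set 3 it had 35.6 CPM (11.5 to 83.0) from 5 UMIs in 4 of 46 cells, above the 4.48 CPM of fibroblast-like cells.

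The balance of the pair differed between classes and sets. *H19* made up 66.4% (65.2 to 67.5) of the UMIs of both genes in fibroblast-like cells of set 1, 71.8% (65.3 to 77.8) in set 2 and 29.3% (18.1 to 42.7) in set 3. In set 1 it was 83.8% (81.8 to 85.6) in epithelium-like cells and 55.4% (53.2 to 57.7) in endothelium-like cells. The *H19* share was therefore lower in set 3 than in set 2 beyond counting error, on 17 UMIs of *H19* and 41 of *Igf2* in set 3. These shares are of counted 3′ ends and not of molecules transcribed.

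**Figure D1:**
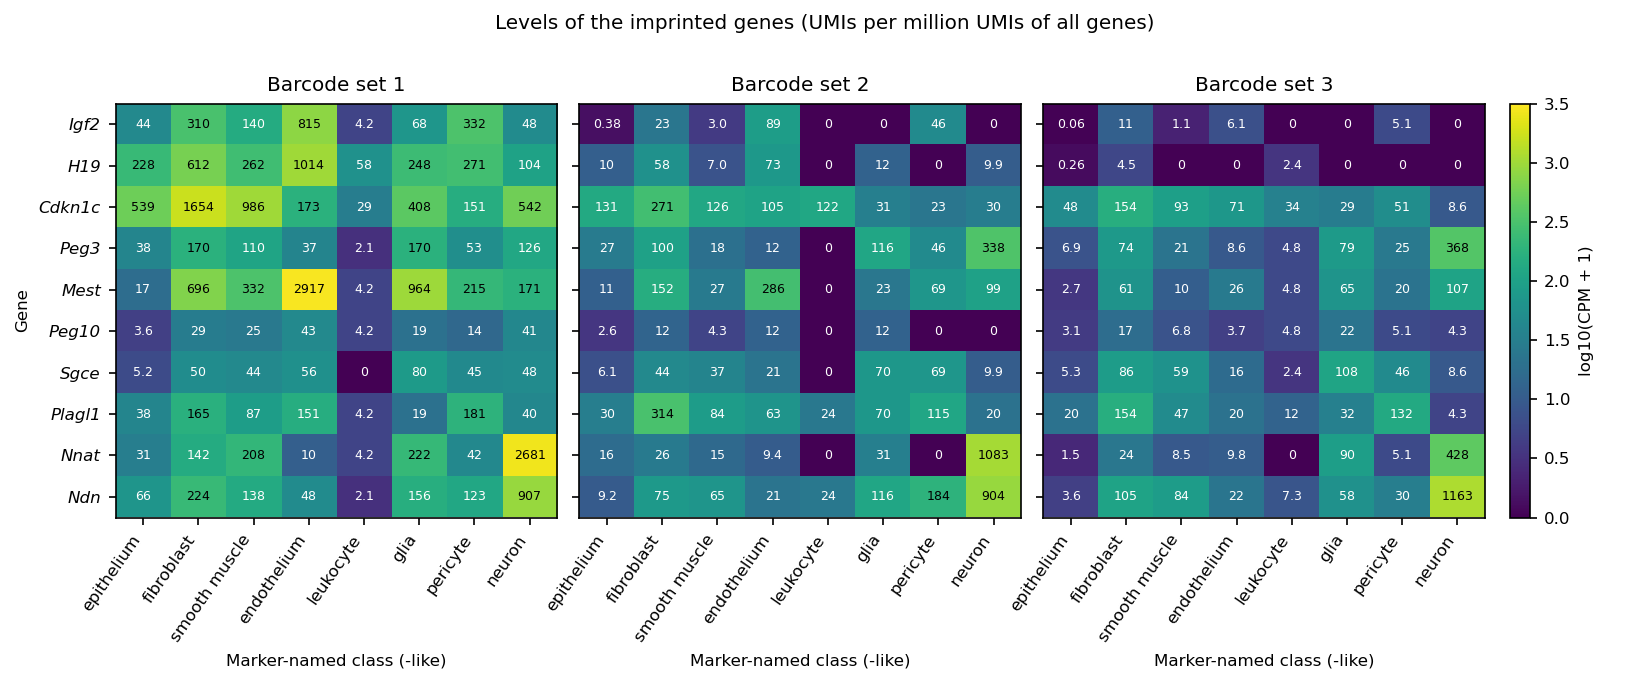
Level of each of the 10 genes (rows) in 8 marker-named classes (columns) for barcode sets 1, 2 and 3 (panels). Colour is log10(CPM + 1), the printed number is CPM, and each cell of the map is 1 sum of UMIs with no replicate. Set 1 held the highest value of *Igf2* (815) and *Mest* (2917), both in endothelium-like cells, and *Nnat* was highest in neuron-like cells in all 3 panels.

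*Cdkn1c* encodes a cyclin-dependent kinase inhibitor that halts the cell cycle, and is expressed from the maternal copy. Fibroblast-like cells had 1654 CPM (1624 to 1684) in set 1, 271 (252 to 292) in set 2 and 154 (141 to 167) in set 3, and smooth muscle-like cells had 986, 126 and 92.9. Epithelium-like cells had 539 (519.7 to 559), 131 (123 to 139) and 48.3 (45 to 51.9). In set 1 endothelium-like cells had 173 (149 to 200.1) and pericyte-like cells 151 (113 to 197), well below epithelium-like cells, whereas these 2 classes had led the order for *Igf2*. That order did not extend to the other sets: endothelium-like cells had 105 (76.9 to 141) in set 2, which overlapped epithelium-like cells, and 71.0 (53.9 to 91.8) in set 3, above them.

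All 3 sets placed *Cdkn1c* highest in fibroblast-like cells. Their log2 ratio over epithelium-like cells was 1.62, 1.05 and 1.67, the last interval running from 1.51 to 1.83, and in set 3 it was the smallest ratio among the 10 genes. Set 1 exceeded set 2 by 6.10-fold and set 3 by 10.8-fold in fibroblast-like cells, and by 4.13-fold and 11.1-fold in epithelium-like cells. The latter pooled unlike clusters: *Cdkn1c* had 551, 40.4 and 13.4 CPM in cluster 4 and 486, 198 and 93.1 CPM in cluster 5. After thinning to 900 UMIs, 64.7%, 19.1% and 11.3% of fibroblast-like cells had a UMI in sets 1, 2 and 3, beside 98.1%, 30.3% and 17.8% unthinned. Leukocyte-like cells had 0, 4.35% and 1.19%.

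*Peg3* and *Plagl1* are paternally expressed genes for zinc finger proteins that bind DNA. *Peg3* showed modest differences between sets: 170.3 CPM (161 to 180.3), 100.2 (88.5 to 113) and 73.8 (65.4 to 83.0) in fibroblast-like cells. Set 1 was 1.70-fold above set 2 and 2.31-fold above set 3. In smooth muscle-like cells the difference was larger, where the 109.7 CPM of set 1 was 5.92-fold the level of set 2 and 5.18-fold that of set 3. Neuron-like cells ran the other way, with 126 CPM (106 to 149) in set 1, 338 (234 to 472) in set 2 and 368 (294 to 454) in set 3, on 30, 15 and 19 cells. Fibroblast markers in neuron-like cells were 1505, 725 and 265 CPM beside 8806, 11972 and 13133 of neuron markers. Their part in this order was not tested. Glia-like cells had 169.9, 116 and 79.0 CPM, with intervals that overlapped those of fibroblast-like cells in each set. Fibroblast markers in glia-like cells stood over glia markers in sets 2 and 3.

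*Plagl1* was highest in set 2 in fibroblast-like cells. These had 165 CPM (156 to 175), 314 (293 to 336) and 154 (142 to 167), so that set 2 stood 2.03-fold above set 3 (log2 ratio 1.02, 0.87 to 1.18) while sets 1 and 3 differed by a log2 ratio of 0.10 (-0.05 to 0.25), which became 2.17 when only cells with at least 1000 genes were kept. Set 2 was also highest in glia-like cells, with 19.1 CPM (9.52 to 34.1), 69.6 (41.3 to 110.1) and 32.3 (14.8 to 61.4), where sets 2 and 3 overlapped. The same order was not seen in endothelium-like cells, with 151, 63.3 and 19.6 CPM, or in epithelium-like cells, with 37.9, 30.2 and 19.7. Pericyte-like cells kept 181, 115 and 132 CPM with overlapping intervals. The excess in set 2 was present in both fibroblast-like clusters: cluster 1 had 76.4, 156 and 103 CPM and cluster 2 had 256, 441 and 215.

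*Mest*, a paternally expressed gene for a protein of the hydrolase fold known as a marker of mesoderm, was high in the vessel and stromal classes of set 1 and low in epithelium. Endothelium-like cells of set 1 had 2917 CPM (2815 to 3022), glia-like cells 964 (886 to 1048), fibroblast-like cells 696 (677 to 716) and smooth muscle-like cells 332 (306 to 359.9), none of these intervals overlapping. Epithelium-like cells had 16.6 CPM (13.4 to 20.4), carried by 12.7% of cells and with 22.8% of the UMIs in 1 cell. The 8 cells of cluster 3 held 54 of its 92 UMIs (279 CPM of *Mest*), while cluster 4 was at 2.67 CPM and cluster 5 at 17.5. The fibroblast-like over epithelium-like ratio was 41.9-fold in set 1, 14-fold in set 2 and 22.3-fold in set 3. The value of set 1 depended on which cells were counted: its log2 ratio of 5.39 became 4.51 with cells classed one by one, close to the 4.63 of set 3 so classed, and 6.6 with high doublet scores left out.

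In sets 2 and 3 fibroblast-like cells had 152 CPM (138 to 168) and 61.2 (53.6 to 69.6) of *Mest*. Endothelium-like cells had 286 (237 to 341) and 25.7 (15.9 to 39.3), so that set 1 was 10.2-fold and 113-fold higher. In set 3 they lay below fibroblast-like cells, whereas in sets 1 and 2 they lay above. Thinned to 900 UMIs, 94.4% of endothelium-like cells of set 1 had a UMI (81.3 to 99.3), against 23.9% and 3.35% in sets 2 and 3. Epithelial markers summed to 42.8 CPM in endothelium-like cells of set 1 and to 1261 and 2141 CPM in those of sets 2 and 3, and the part of these and of the other markers given above in this difference was not tested.

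*Sgce* and *Peg10* stand back to back on chromosome 6 and are both paternally expressed. *Sgce*, which encodes a sarcoglycan of the cell membrane, was the exception among the 10 in that set 3 was highest in fibroblast-like cells, at 86 CPM (76.9 to 95.8) against 49.8 (44.7 to 55.3) and 43.5 (35.9 to 52.2). Its level in epithelium-like cells was 5.24, 6.14 and 5.35 CPM with overlapping intervals. Glia-like cells had 79.8, 69.6 and 108 CPM, also overlapping. *Peg10*, a gene derived from a retrotransposon and needed in the placenta, was sparse: fibroblast-like cells had 28.6 CPM (24.7 to 32.8), 12.5 (8.59 to 17.5) and 16.9 (13 to 21.5). Endothelium-like cells of set 1 had 42.8 CPM, of which 40.0% lay in 1 cell. The order of sets for *Sgce* depended on the cells kept: set 1 over set 3 was -0.79 on the log2 scale and 0.96 when only cells with at least 1000 genes were kept.

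*Nnat* and *Ndn* are best known from neurons, the former coding for a small membrane protein and the latter for a protein of the MAGE family from the region lost in Prader-Willi syndrome. Neuron-like cells had 2681 CPM (2585 to 2780.1) of *Nnat* in set 1, 1083 (889 to 1306) in set 2 and 428 (348 to 520.1) in set 3. In set 3, 36.0% of these UMIs came from 1 cell of 19. *Ndn* was 907 CPM (851 to 966), 904 (728 to 1110.0) and 1163 (1029 to 1310.0) in neuron-like cells, and the other named classes had at most 224 CPM in any set. These 2 genes were therefore highest in neuron-like cells in each set, with intervals clear of the next class.

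Outside neurons both genes were higher in fibroblast-like than in epithelium-like cells. Fibroblast-like cells had 142, 26.1 and 23.7 CPM of *Nnat* and 224, 74.9 and 105 CPM of *Ndn*, so that *Nnat* was 5.42-fold and 5.97-fold higher in set 1 and *Ndn* 2.99-fold and 2.14-fold. Set 3 exceeded set 2 for *Ndn* (log2 ratio of set 2 over set 3 of -0.48, -0.74 to -0.23). Epithelium-like cells had 30.7, 16.5 and 1.53 CPM of *Nnat*. In set 2 this left the smallest fibroblast-like over epithelium-like ratio found for any of the 10 genes, a log2 ratio of 0.66 (0.22 to 1.09). That value changed sign when only cells with at least 1000 genes were kept, which left 38 fibroblast-like cells in set 2.

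Set against the table as a whole, the genes leaned to fibroblast-like cells. With a 2-fold ratio as the mark, 10 of 10 were higher in fibroblast-like than in epithelium-like cells in set 1, 9 in set 2 (all but *Nnat*) and 10 in set 3, and 0 were lower. *Cdkn1c* in set 2, at 1.05, was 0.81 as a mean over cells of CPM and 2.72 without integration. The background was 20.1%, 17.9% and 19.5% higher and 14.1%, 12.5% and 19.1% lower, of all genes that reached a mean of 10 CPM over both classes, a mark met by 10, 9 and 7 of the 10 genes. The median log2 ratio of the 10 genes was 2.18, 2.66 and 3.98. For those that reached a mean of 10 CPM it was 2.18, 2.82 and 3.96, beside 0.13, 0.09 and -0.15 for all genes. The median of set 3 was lower with at least 1000 genes per cell, as given in the closing section. As the genes were chosen with earlier results of these data in view, the counts describe the list and test nothing.

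RNA freed from broken cells can enter every droplet, so the epithelium-like levels were set beside those of 4 matrix genes of fibroblasts. *Col1a2*, *Col3a1*, *Dcn* and *Lum* in epithelium-like cells came to 0.859% to 2.21% of their fibroblast-like level in set 1, 3.70% to 22.5% in set 2 and 0.747% to 11.3% in set 3. In set 1 all 10 genes lay above that range, from 2.39% for *Mest*, next to its top and resting in part on 1 cell, to 37.2% for *H19*. In set 2, *Cdkn1c* (48.2%), *Peg3* (27.1%) and *Nnat* (63.4%) lay above the range, *Igf2* (1.66%) lay below it, and the rest lay within it. In set 3, *Cdkn1c* (31.4%), *Plagl1* (12.8%) and *Peg10* (3.12 against 16.9 CPM) lay above it, *Igf2* (0.589%) below it and the rest within it. *Dcn* alone set the top of the range in sets 2 and 3: the other 3 matrix genes came to 3.70% to 5.12% and 0.747% to 0.967%, and against these every gene but *Igf2* lay above. Whether *Dcn* or the other 3 give the better measure of such background was not tested.

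**Figure D2:**
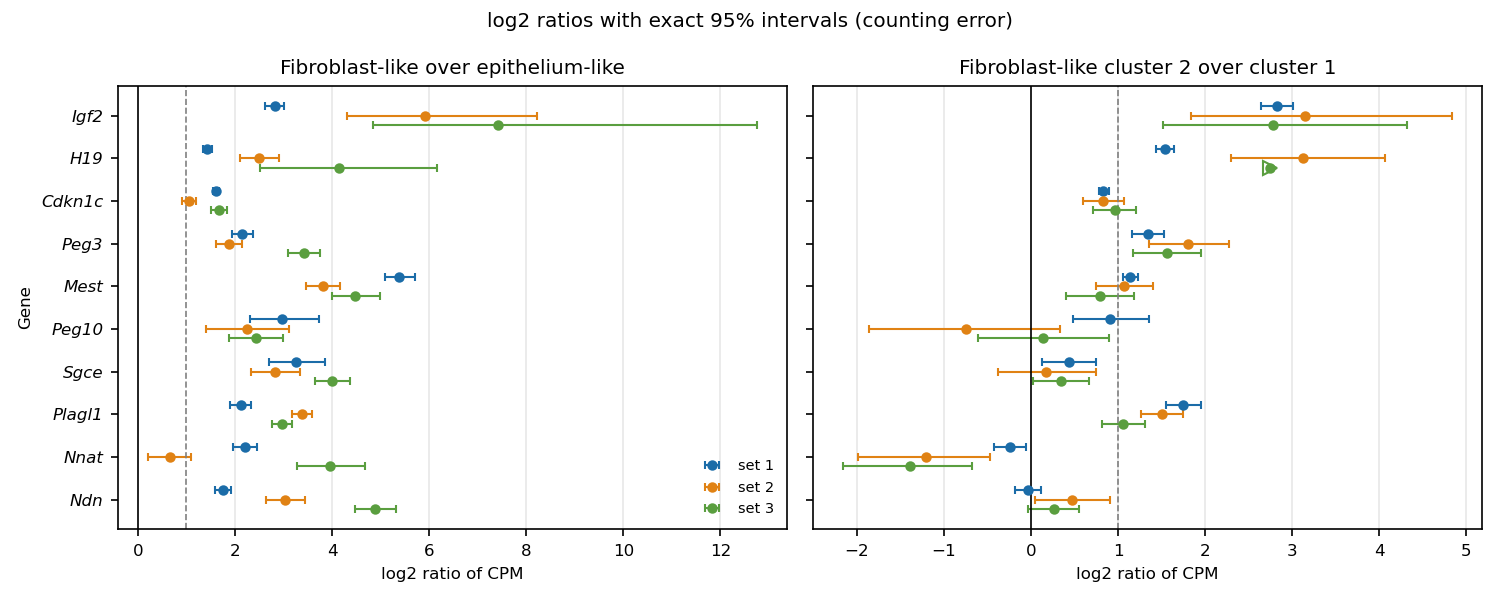
Log2 ratio of CPM for each gene in sets 1, 2 and 3 (colours), fibroblast-like over epithelium-like cells on the left and fibroblast-like cluster 2 over cluster 1 on the right, with exact 95% intervals for counting error. The solid line is no difference, the dashed line a 2-fold ratio, and the open triangle a lower bound for *H19* in set 3 drawn with no interval. On the left all points but *Nnat* in set 2 (0.66) lie past the dashed line, and on the right *Igf2* lies past it in each set (2.82, 3.15 and 2.78).

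Against fibroblast-like cells, the smooth muscle-like class was lower. By 2-fold or more, 3 of the 10 genes were lower in set 1 (*Igf2*, *H19* and *Mest*), 7 in set 2 and 7 in set 3, while 6.47%, 8.09% and 13.3% of all genes compared were lower. With the mean of 10 CPM asked of all genes, the counts were 3 of 10, 6 of 9 and 5 of 8. None of the 10 was higher, beside 3.40%, 8.13% and 11.3% of all genes. The medians were -0.72, -1.72 and -1.60. Endothelium-like cells of set 1 split the list, with *Igf2* and *Mest* higher and *Cdkn1c*, *Peg3*, *Nnat* and *Ndn* lower, against 12.5% of all genes higher and 19% lower. In set 2, *Igf2* alone was higher by that mark (background 17.3%) and 6 genes were lower (13.2%). In set 3, 0 were higher (23.1%) and 8 lower (12.5%).

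In set 1 leukocyte-like cells carried the least. They had the lowest level of the 8 classes for 9 of the 10 genes, with an interval clear of the next class for *Igf2*, *H19*, *Cdkn1c*, *Peg3* and *Ndn* and overlapping it for *Mest*, *Sgce*, *Plagl1* and *Nnat*. For *Peg10* epithelium-like cells were lower, with overlap. The share of all genes that were lowest in leukocyte-like cells was not counted. All 10 genes together summed to 113 CPM (84.6 to 147) in leukocyte-like cells of set 1, beside 4052 in fibroblast-like, 5264 in endothelium-like, 4707 in neuron-like and 1009 in epithelium-like cells. In sets 2 and 3 the sums in fibroblast-like cells were 1075 (1036 to 1115) and 689 (663 to 716), and in epithelium-like cells 244 (233 to 255) and 91.6 (86.9 to 96.4). Leukocyte-like cells had 171 (93.4 to 287) and 72.6 (49.0 to 104), overlapping epithelium-like cells.

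Across sets, set 1 was highest for most genes in most classes. In fibroblast-like cells 6 of the 10 (*Igf2*, *H19*, *Cdkn1c*, *Mest*, *Nnat* and *Ndn*) were at least 2-fold above both other sets, where 14.4% of all genes were. *Ndn* was the least secure of the 6: over set 3 its log2 ratio of 1.10 became 0.58 when centred on the median of all genes and 0.95 in cluster 2 alone, and over set 2 its 1.58 became 0.91 with at least 1000 genes per cell. The count was 4 in epithelium-like cells (background 12.1%), 7 in smooth muscle-like cells (13.9%) and 8 in endothelium-like cells (8.48%), and 0 genes were lower by that mark in these 4 classes, beside 6.10%, 5.82%, 7.53% and 11.9% of all genes. *Igf2*, *H19* and *Nnat* had their highest level in set 1 in 8 of 8 classes, with an interval clear of both other sets in 6, 7 and 5 of them. *Sgce* was highest there in 2 of 8 and clear in 1. Leukocyte-like cells had 0 genes whose interval in set 1 lay above both others. Counts of classes were made for the 10 genes only, so no share of all genes stands beside them.

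Set 1 also differed from the others in depth, in the clusters that made up a class and in cell number, and library, tissue and handling cannot be told apart with 1 library for each. Taken within a single cluster, the count of genes at least 2-fold above both other sets was 7 in cluster 1 alone, where *Peg3* joined the 6, and 6 in cluster 2 alone, where *Peg10* passed and *Ndn* did not. How many of all genes pass within a cluster was not counted. Over set 2 the log2 ratio of *Igf2* was 4.2 and 3.87 in clusters 1 and 2, and over set 3 it was 4.73 and 4.77. Clustering without integration named only 7 cells of set 1 fibroblast-like, so these ratios rest on integrated clusters. After thinning to 900 UMIs, a fibroblast-like cell of set 1 carried a mean of 2.06 of the 10 genes, against 0.77 in set 2 and 0.53 in set 3, and unthinned the means were 6.81, 1.20 and 0.80. None of the 10 was seen in 10.6%, 45.9% and 58.6% of the thinned cells.

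**Figure D3:**
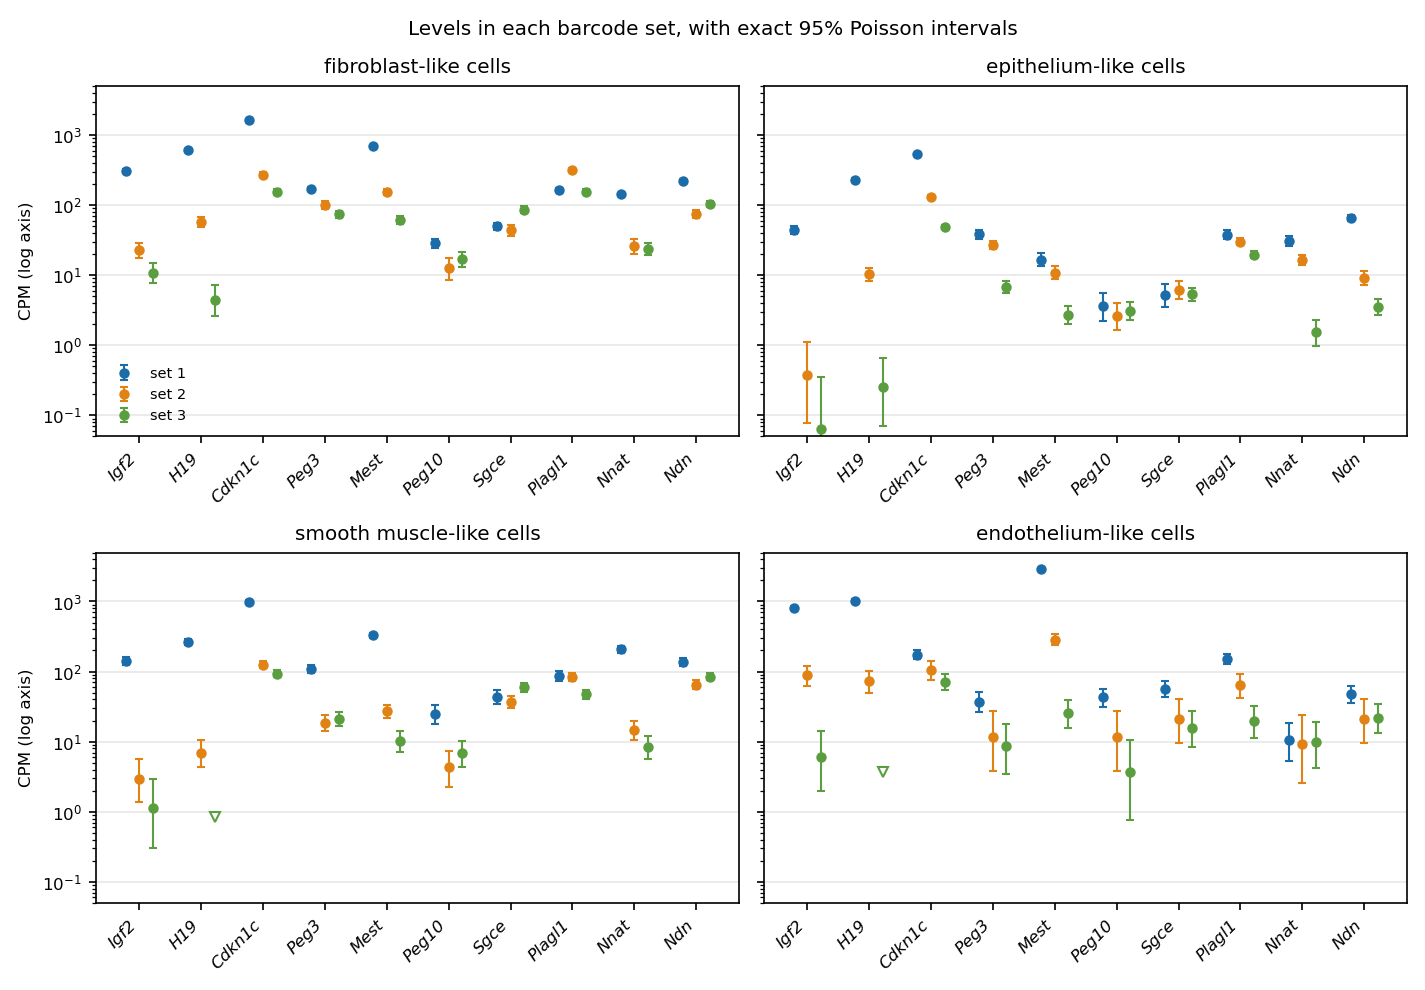
Level of each gene in fibroblast-like, epithelium-like, smooth muscle-like and endothelium-like cells (panels) in barcode sets 1, 2 and 3 (colours), on a log axis of CPM, with exact 95% Poisson intervals. Open triangles stand at the level of 3 UMIs where 0 were counted, and intervals that run below the axis are clipped. Set 1 lies highest for *Igf2* and *H19* in each panel, while *Plagl1* in fibroblast-like cells is highest in set 2 (314) and *Sgce* in set 3 (86).

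The 2 fibroblast-like clusters differed in these genes. Cluster 1 was led by *Lamc3*, *Col15a1* and *Tcf21*, and cluster 2 by *Dpt*, *Ptx3* and *Lum*, and none of the 10 genes was among the features used to cluster. *Igf2* was higher in cluster 2 in each set, with a log2 ratio of 2.82 (2.64 to 3.0), 3.15 (1.84 to 4.83) and 2.78 (1.51 to 4.31). *H19* had ratios of 1.54, 3.12 and, against 0 UMIs in cluster 1 of set 3, at least 2.74. *Plagl1* had 1.75, 1.5 and 1.06 and *Peg3* 1.34, 1.80 and 1.56. *Nnat* was the only gene of the 10 with ratios below 0 past counting error in each set, at -0.24, -1.21 and -1.39.

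By the 2-fold mark, 5 of the 10 genes (*Igf2*, *H19*, *Peg3*, *Mest* and *Plagl1*) were higher in cluster 2 in sets 1 and 2, and in set 3 the same but *Mest*, whose log2 ratio was 0.79. Among all genes compared, 7.31%, 3.57% and 4.33% were higher by that mark. With the mean of 10 CPM asked of all genes, the count in set 3 was 3 of 9. In the other direction 0, 1 and 1 of the 10 passed it (*Nnat* in sets 2 and 3), beside 12.6%, 2.92% and 3.84% of all genes. *Cdkn1c* stayed below it, at 0.83, 0.83 and 0.96. *Ndn* had ratios of -0.04, 0.47 and 0.26. The *H19* share of the pair in set 1 was 80.3% in cluster 1 and 62.5% in cluster 2, and the intervals, 78.1 to 82.3 and 61.2 to 63.9, did not overlap.

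From cell to cell, *Igf2* and *H19* were the most alike of the 45 pairs. Over 337 fibroblast-like cells of set 1 thinned to 5000 UMIs, their Pearson's r was 0.60, and in clusters 1 and 2 taken alone it was 0.29 and 0.45. All cells share 1 library, so r is a description only. The *Igf2* to *H19* value was 0.68 on log values of all UMIs. Other pairs of this group were *Cdkn1c* with *Mest* (0.37), *H19* with *Mest* (0.36) and *Peg3* with *Mest* (0.36). In total 13 of 45 pairs reached 0.2 and the median pair was at 0.03, while pairs among 3523 other genes of at least 20 CPM had a 95th percentile of 0.10. Within cluster 1 alone 6 of 45 pairs reached 0.2, and within cluster 2 alone 12. The 95th percentiles of other genes there were 0.13 and 0.15. Those other genes were not matched for level, and their share at 0.2 or above was not counted.

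*Peg10*, *Sgce* and *Nnat* had low values in fibroblast-like cells of set 1. At this depth 9.20% of cells had a UMI of *Peg10*, 24.3% of *Sgce* and 38.9% of *Nnat*, beside 37.7% of *Plagl1*, which reached 0.34 with *Igf2*. Their correlations with the rest lay between -0.17 and 0.09 in fibroblast-like cells, and *Sgce* with *Peg10*, the adjacent pair, stood at -0.03. On log values of all UMIs *Peg10* reached 0.26 with *Peg3* and 0.19 with *Plagl1*, and *Sgce* 0.17 with *Cdkn1c*. In cluster 2 alone the highest value was *H19* with *Cdkn1c* at 0.52, and in smooth muscle-like cells of set 1 the same pair reached 0.50 over 72 cells. *Nnat* there reached 0.38 with *Cdkn1c* and 0.32 with *H19*, and lay between -0.20 and 0.26 with the rest. *Igf2* with *H19* was 0.21 in those cells, where other genes had a 95th percentile of 0.21.

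**Figure D4:**
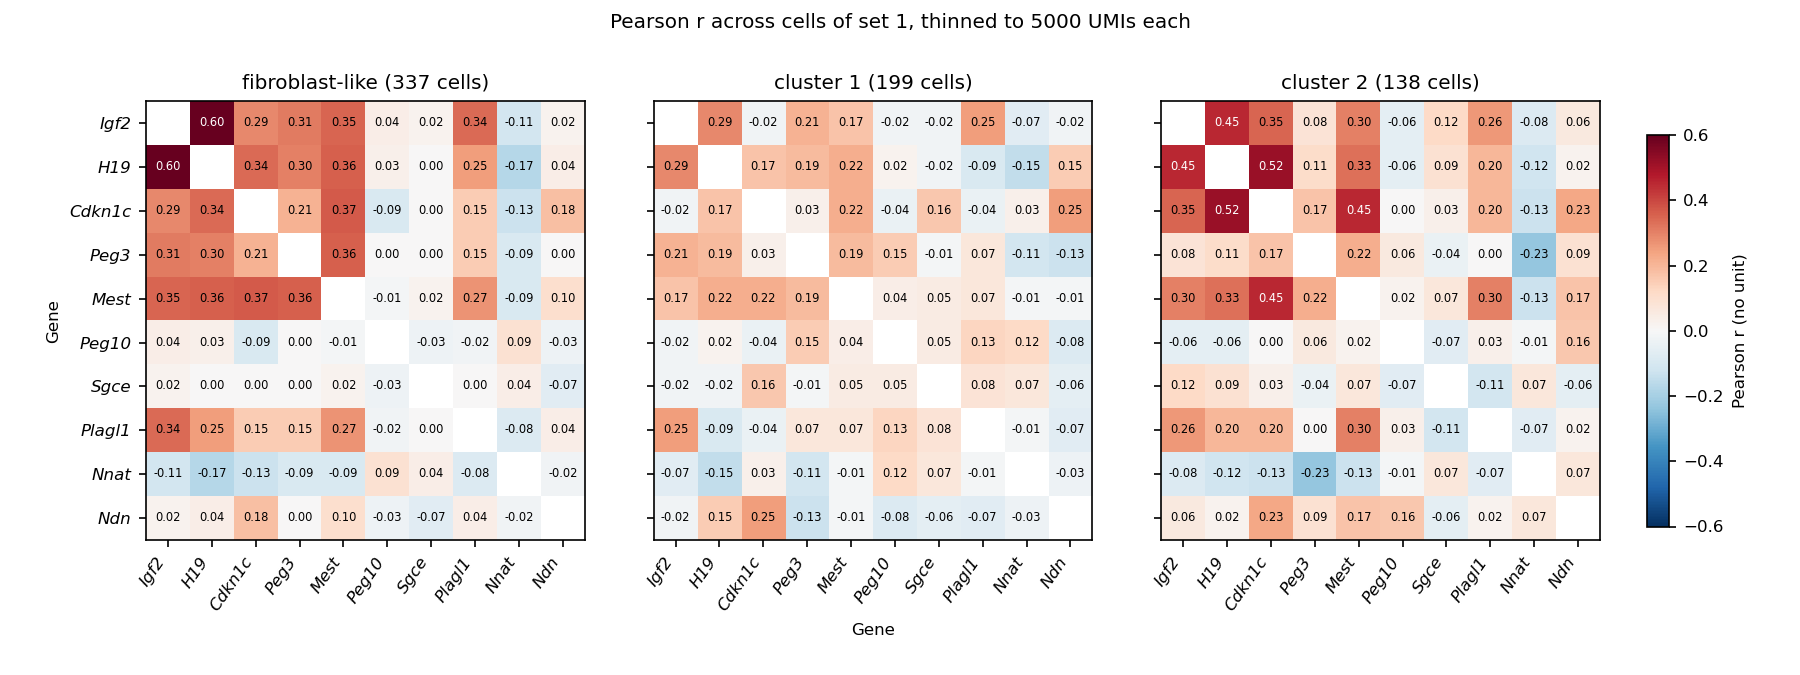
Pearson's r across cells of set 1 between each pair of the 10 genes, in fibroblast-like cells together (337 cells) and in clusters 1 (199) and 2 (138), each cell thinned to 5000 UMIs. Red is a positive and blue a negative r, the diagonal is blank, and no p is given because cells of 1 library are not independent. *Igf2* with *H19* is the darkest square on the left (0.60), and it is paler in cluster 1 (0.29) than in cluster 2 (0.45).

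Over 21 combinations of class and set with at least 20 cells, the levels of *Igf2* on a log scale followed those of *Mest* (r = 0.89) and *H19* (0.86) most closely among the 10 genes, and *Peg3* followed *Ndn* (0.81). Of 3443 other genes, *Tspan6* (0.84), the imprinted *Gnas* (0.82), *Tead2* (0.80), *Cdc16* (0.80) and *Gtf2ird1* (0.79) were most like *Igf2*. *Crabp2*, a retinoic acid binding protein, was most like *Cdkn1c* (0.92), before *H2afy2* (0.87), *Ssbp3* (0.84), *Lrrc42* (0.83) and *Khdrbs1* (0.82). In fibroblast-like cells *Tead2* had 139, 14.4 and 14.8 CPM in sets 1, 2 and 3, and *Crabp2* had 151, 28.4 and 15.8. The combinations share libraries and depth, so that a gene high throughout set 1 will score well here.

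Other imprinted genes were mixed, and their count depended on whether low genes were kept. Of 50 listed, 34 had a row, of which 11, 10 and 13 were at least 2-fold higher in fibroblast-like than in epithelium-like cells in sets 1, 2 and 3 and 6, 4 and 8 lower, with median log2 ratios of 0.65, 0.43 and 0.22. The mean of 10 CPM was reached by 20, 16 and 15. Of these, 4, 2 and 3 were higher by that mark and 6, 2 and 3 lower, where all genes had 20.1%, 17.9% and 19.5% higher and 14.1%, 12.5% and 19.1% lower. The medians past that level were -0.06, 0.12 and -0.26, beside 2.18, 2.82 and 3.96 for those of the 10 genes that reached it. The 5 with most UMIs were *Gnas*, *Cd81*, *Kcnq1ot1*, *Ube3a* and *Pon2*. *Gnas*, which encodes a stimulatory G protein subunit, had 2588, 1682 and 1406 CPM in fibroblast-like and 1191, 879.9 and 681 in epithelium-like cells. *Cd81*, a tetraspanin gene, had log2 ratios of 1.16, 1.5 and 1.54. *Kcnq1ot1*, the non-coding RNA that silences the paternal *Cdkn1c*, had 0.79, 0.35 and 0.04, and *Ube3a*, a ubiquitin ligase gene, 0.20, 0.65 and -0.26. *Pon2*, a lactonase gene of the imprinted region that holds *Sgce* and *Peg10*, leaned to epithelium, at -3.30, -1.63 and -1.84.

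The other 3 clusters bore no class name. Cluster 7, led by *Ttn*, *Msc*, *Myf5* and *Myod1*, genes of skeletal muscle and its precursors, held 13 cells in set 1 and had 553 CPM (495 to 615) of *Nnat* and 308 (265 to 355) of *Peg3* there, beside 24.6 and 43.9 in set 2 and 9.98 and 21.0 in set 3. Cluster 10, led by mitotic genes, had 1139.6 CPM (1044 to 1241) of the cell cycle inhibitor *Cdkn1c* in its 19 cells of set 1, 247 in set 2 and 156 in set 3. Cluster 11, which carried 14 of 14 epithelial markers but was led by *Wfdc15b*, *Folr1* and *Upk1a*, had 434 CPM (403 to 467) of *H19* and 121 (104 to 139) of *Igf2* in set 1, and 3.04 (0.988 to 7.10) of *Mest*.

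The reporter row *EGFP* was read beside the 10 genes in fibroblast-like cells of set 1, with different results in the 2 clusters. *Igf2* was lower in the 210 fibroblast-like cells with an *EGFP* UMI than in the 151 without, with a log2 ratio of -0.53 (-0.66 to -0.41), which in cluster 1 was 0.26 (-0.12 to 0.66) and in cluster 2 -0.62 (-0.75 to -0.48). *H19* was higher with *EGFP* in cluster 1 (0.44, 0.24 to 0.64) and lower in cluster 2 (-0.49, -0.59 to -0.39). *Nnat* ran the other way, at -0.59 (-0.84 to -0.34) and 0.43 (0.13 to 0.75). Cells with *EGFP* were deeper in cluster 2, with a median of 25802 UMIs against 16410.5, while in cluster 1 the medians were 14499 and 13962, and the part of depth in these differences was not tested.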

How the data were processed

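Tissue was dissociated with collagenase and TrypLE and sequenced as 10x 3′ single cell libraries, with a kit version that differs between the labels and the methods of the study. Per the labels the authors counted UMIs with Cell Ranger 3.1.0 on mm10. According to the methods, transgene sequences were added, and the authors had taken out droplets without a cell, multiplets and cells with much mitochondrial RNA. The values deposited by the authors were on a natural log scale (ln of 1 plus a gene's share of its cell's UMIs, scaled to 10000), although raw counts had been foreseen. All 11121287 values above 0 came back as whole UMIs within 0.05. The table was held only in part, as 9784 rows of genes by 14573 columns of cells, the rows carrying 49.4% to 52.7% of the UMIs of a set. A row that stops part-way and 2 rows of 1 name were left out, as were 97 cells with fewer than 200 genes.

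Clustering was run in Seurat 5.3.0 (R 4.3.3) after the study's settings: integration over 20 dimensions, cell cycle scores regressed out, 30 principal components and resolution 0.5, with 45 genes (the 10 genes, other imprinted genes and *EGFP*) kept out of the features. A cluster took the class with the largest share of listed markers carried, with at least 3, a marker being carried at 10% of cells and 2-fold over the median cluster. No other class could have more markers among the cluster's 10 leading genes, and with none of its own there the next class had to carry under 0.5 of its share. These conditions left clusters 7, 10 and 11 unnamed. This naming rule was set after clustering, and 749 cells stayed in no class. Scrublet (scanpy 1.11.5) marked 3, 0 and 0 cells as doublets in sets 1 to 3, so it had not worked as a filter and no cell was removed. Cells were thinned to 900 UMIs for shares (1200 as an alternative) and to 5000 for correlations. Sums of 0 entered ratios as 3 UMIs, and no ratio was given where both sums were at or under 3. Recovery of UMIs and intervals was tested on simulated data. Intervals were computed in Python 3.11.15 with scipy 1.17.1.

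Named were the 10 genes, the 5 other imprinted genes with most UMIs, and the 5 genes most like *Igf2* and *Cdkn1c*; matrix, marker and cluster-leading genes are named as yardsticks. The members and lists were chosen with earlier results of these data known.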

Additional observations from a re-analysis of the deposited data

Results flagged for a closer look

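A few genes changed side between classes from set to set, with counting intervals that excluded 0 in each set named. The difference between sets was not tested, since each set is 1 library. Values are log2 ratios over fibroblast-like cells of the same set. *Nnat* in smooth muscle-like cells was 0.55 in set 1, -0.84 in set 2 and -1.49 in set 3, with 22.2% of the UMIs of set 1 in 1 cell. Smooth muscle markers of that class were far lower in set 1 (4029 CPM) than in sets 2 and 3 (24804 and 23638), and their part in this was not tested.

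*Mest* in endothelium-like cells was 2.07, 0.91 and -1.25 in sets 1, 2 and 3, and *Peg10* in the same class was 0.58 in set 1 and -2.20 in set 3, on 3 UMIs in set 3 and with 40.0% of the UMIs of set 1 in 1 cell. In glia-like cells *Mest* was 0.47 in set 1 and -2.72 in set 2, and *Ndn* was -0.52, 0.63 and -0.87, while fibroblast markers in this class were 2582, 6859 and 5814 CPM and glia markers 6605, 4538 and 5175 in sets 1, 2 and 3, whose part was not tested. In pericyte-like cells *Ndn* was -0.87, 1.29 and -1.78, with 8 UMIs in set 2 and 6 in set 3. Fibroblast markers in this class were 10408, 4892 and 2601 CPM and smooth muscle markers 5212, 5328 and 9648 in sets 1, 2 and 3. Its own markers were 3291, 2503 and 3749.5 CPM, and the part of the other markers was not tested. In neuron-like cells *Peg3* was -0.44, 1.75 and 2.32, and *Mest* was -2.03 in set 1 and 0.81 in set 3, on 15 and 19 cells in sets 2 and 3.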

How the results depend on the processing

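No paired analysis was possible because a single library stood behind every tissue and age. All 39 recomputed counts (genes higher in fibroblast-like than in epithelium-like cells, and genes higher in set 1) stayed within 1.5 times the values reported. The median log2 ratio of the 10 genes moved by more than counting error in 5 of 29 recomputations: in set 1 from 2.18 to 2.60 at resolution 1.0, to 2.50 with at least 1000 genes per cell and to 1.91 with cells classed one by one, in set 2 from 2.66 to 3.30 without integration, and in set 3 from 3.98 to 2.27 with at least 1000 genes per cell. For single genes, 255 of 317 values for fibroblast-like over epithelium-like cells and 138 of 200 for sets counted as unchanged. That meant a move of less than counting error, except for the difference of mean deposited values. That difference, used for fibroblast-like over epithelium-like cells only, is on another scale, and its values counted as unchanged unless the direction turned. The direction turned for *Nnat* over epithelium-like cells in set 2, to -0.22 with at least 1000 genes per cell and to -0.01 as a difference of mean deposited values, and for *Sgce* in set 1 over set 3, to 0.96 with at least 1000 genes per cell. That filter left 90, 38 and 25 fibroblast-like cells, and the cause of each change was not tested.

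Without integration set 1 had 7 fibroblast-like cells, and its ratios were not run there. No cluster led by mitotic genes was in a class, so leaving such clusters out gave the values reported. Counting cluster 10 as fibroblast-like or cluster 11 as epithelium-like, taking cluster 1 or 2 alone and centring on the median of all genes were alternatives chosen after seeing the data. Centring takes off the median ratio of all genes compared between the 2 groups. In fibroblast-like cells it took *Cdkn1c* from 2.61 to 2.43 for set 1 over set 2 and from 3.43 to 2.91 for set 1 over set 3. Depth bears on shares of cells in each set: those with a UMI moved past counting error in 45 of 60 recomputations at 1200 UMIs or unthinned.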
